A study of Saccharomyces cerevisiae with 6 samples.

Results

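GAP1, MEP1, MEP2 and MEP3 encode the general amino acid permease and the ammonium permeases of budding yeast. These 4 genes were taken by name from the probe annotation, out of 5560 named genes on arrays of 6210 probes, and each had 1 probe with a value on all 6 arrays. The series compared poly(A) RNA of Saccharomyces cerevisiae strain S288c, the reference laboratory strain, in pairs of samples labelled with Cy5 and Cy3. A group of 2 arrays set MDN with rapamycin against MDN, another group of 2 set YPD with rapamycin against YPD, and the remaining arrays compared MDN with YPD (1 array) or with SCD (1 array). YPD is a rich medium of yeast extract, peptone and glucose, while MDN and SCD are media whose abbreviations the labels do not spell out. All samples were of the same strain with no engineered allele stated, and the sources used here give no rapamycin dose, exposure time or number of cultures. The locus tags are YKR039W for GAP1, YGR121C for MEP1, YNL142W for MEP2 and YPR138C for MEP3.

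Gap1 imports nearly all amino acids, and the Mep proteins import ammonium. Mep2 has the highest affinity and also acts as an ammonium sensor for filamentous growth, Mep1 carries ammonium with lower affinity and higher capacity, and Mep3 has the lowest affinity. Their genes are known targets of nitrogen catabolite repression, by which the GATA activators Gln3 and Gat1 drive transcription when preferred nitrogen sources are scarce, and Dal80 and Gzf3 repress many of the same targets. Rapamycin binds Fpr1 and inhibits the TOR complex 1 kinase, and this releases Gln3 from its cytoplasmic anchor Ure2. Gap1 and the Mep proteins are also controlled after translation, by the kinase Npr1 and by ubiquitin-driven endocytosis, which transcript arrays do not measure.

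Values are log2 ratios of the Cy5 sample over the Cy3 sample, so that a positive value means more transcript with rapamycin, or more in MDN than in the other medium. This direction follows from the dyes in the labels and is likely rather than stated, and every direction below would turn over together if the ratio had been formed the other way. Array medians lay between -0.09 and 0.07. The median absolute deviation was 0.37 and 0.34 on the MDN rapamycin arrays, and 0.48 and 0.46 on the YPD rapamycin arrays. Across probes, the correlation between the paired arrays of one group was 0.967 in MDN and 0.954 in YPD. No dyes were swapped, so a probe's own dye bias cannot be separated from its ratio. Separate cultures are not stated for the arrays of one group, and the p-values therefore reflect nothing beyond how far these particular arrays differed, which may be technical variation. Errors after ± are standard errors from limma with n = 2 arrays per medium. They use a spread shared by both media and moderated toward that of all features, so a gene has the same error in MDN and YPD. A gene is said to have risen or fallen where its adjusted p was under 0.05 over all 5488 genes and unnamed probes tested.

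**Figure D1:**
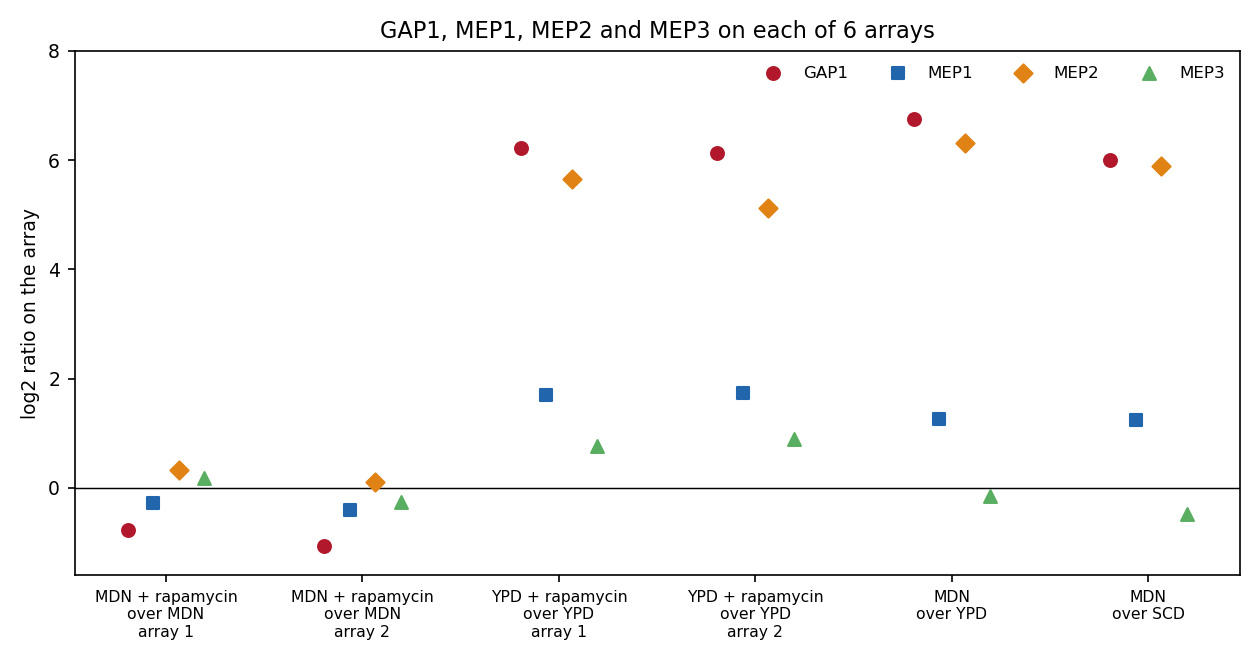
Log2 ratio (y axis) of each gene on each of the 6 arrays (x axis), with 1 point per gene and array and no averaging. GAP1 and MEP2 lie above 5 on the 2 YPD rapamycin arrays and on both medium arrays, and between -1.06 and 0.32 on the 2 MDN rapamycin arrays.

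The medium comparisons asked how growth in MDN differed from growth in YPD or SCD. GAP1 and MEP2 had the highest and second highest ratios of all genes and unnamed probes on both of these arrays. GAP1 stood at 6.75 on the log2 scale for MDN over YPD, a 107-fold ratio, and at 6.0 against SCD, a 64.0-fold ratio. MEP2 stood at 6.30 for MDN over YPD, or 79.0-fold, and at 5.89 against SCD, or 59.5-fold. All of these ratios for GAP1 and MEP2 were thus 59.5-fold or more. MEP1 was moderately higher in MDN, at 1.27 over YPD and 1.24 over SCD, which are ratios of 2.41 and 2.37. MEP3 was the exception, at -0.15 over YPD and -0.47 over SCD, ratios of 0.90 and 0.72. Thus 3 of the 4 genes reached a log2 ratio of at least 1 on each array, where 3.93% of 6056 features did so over YPD and 2.39% of 5901 over SCD. None of the 4 was at -1 or below, where 1.96% and 0.983% of features were. Each medium comparison is 1 array, so there is no replicate check and no test. In a culture measured in bulk, fewer cells with a transcript and less of it per cell cannot be told apart. Spot intensities were not used here, so how dim the permeases were in YPD or SCD, and hence how precise such large ratios are, cannot be given.

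**Figure D2:**
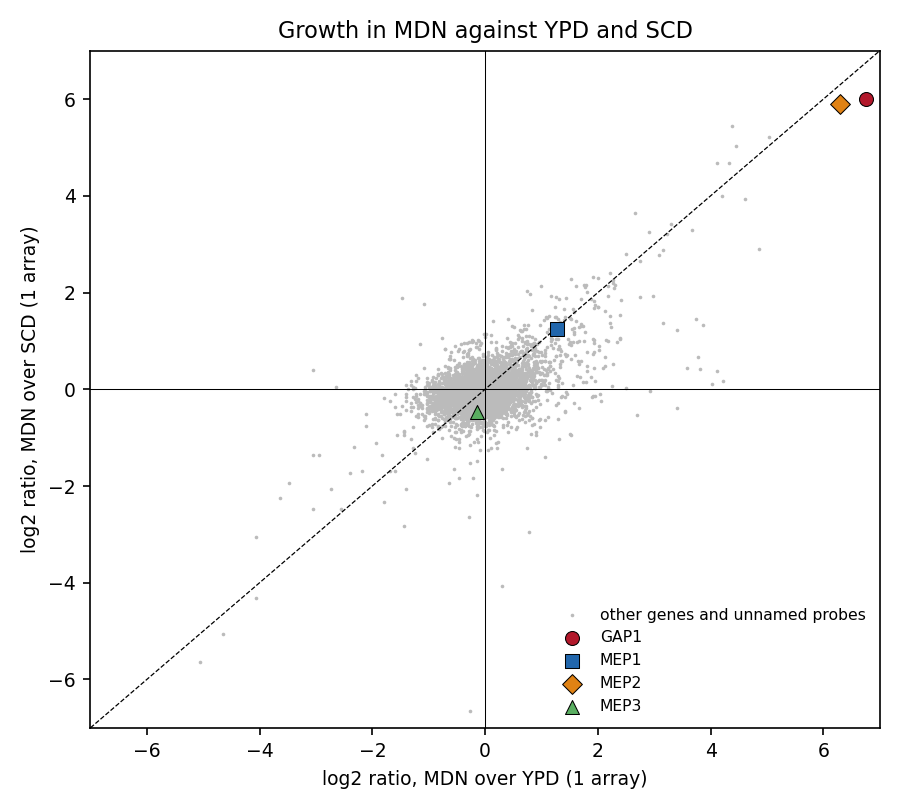
Log2 ratio of MDN over YPD (x axis) against log2 ratio of MDN over SCD (y axis), 1 array each. Grey points are the other genes and unnamed probes, coloured points are the 4 permease genes, and the dashed line marks equal ratios. GAP1 (6.75, 6.0) and MEP2 (6.30, 5.89) are the outermost points at the upper right, MEP1 lies near the dashed line and MEP3 lies inside the main cloud.

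The MEP genes are related in sequence, and whether their probes share signal was not tested. On the array of MDN over YPD the MEP3 probe stood at -0.15 while the MEP2 probe stood at 6.30. On the array of MDN over SCD they stood at -0.47 and 5.89.

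Rapamycin in YPD raised all 4 permease transcripts, by amounts that ranged from 1.79-fold for MEP3 to 72.6-fold for GAP1. GAP1 stood at 6.23 on array 1 and 6.14 on array 2, with a mean of 6.18 ± 0.10 (limma, adjusted p = 2.41e-05), and had the highest mean of the 5488 features. MEP2 stood at 5.65 and 5.12, with a mean of 5.38 ± 0.15, the third highest (adjusted p = 3.42e-05). The 2 arrays differed more for MEP2 than for GAP1, and both were far from 0 for either gene. MEP1 stood at 1.70 and 1.74, with a mean of 1.72 ± 0.08, or 3.29-fold (adjusted p = 9.11e-05). MEP3 stood at 0.77 and 0.90, with a mean of 0.84 ± 0.13, or 1.79-fold (adjusted p = 0.00343). The order of GAP1, MEP2, MEP1 and MEP3 was the same on both arrays. All 4 genes rose, where 34.3% of all features rose and 66.3% were called in either direction. The median of the 4 was 3.55, against 0.01 over all features. With 1 YPD array left out of the fit, GAP1, MEP2 and MEP1 still passed, while MEP3 did not, at 0.90 (adjusted p = 0.0826) without array 1 and 0.77 (adjusted p = 0.0995) without array 2.

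Rapamycin in MDN left these transcripts close to their untreated level or lower. GAP1 fell, with -0.76 on array 1 and -1.06 on array 2 and a mean of -0.91 ± 0.10, a ratio of 0.532 (limma, adjusted p = 0.00196). MEP1 stood at -0.27 and -0.40, with a mean of -0.33 ± 0.08, a ratio of 0.794 (adjusted p = 0.0219). Both genes were thus below 0 on both arrays. MEP2 stood at 0.32 and 0.11, a mean of 0.22 ± 0.15 that did not pass (adjusted p = 0.271), with a 95% interval from -0.17 to 0.60. MEP3 stood at 0.19 and -0.25, so that its arrays fell on either side of 0, and its mean was -0.03 ± 0.13 (adjusted p = 0.85, interval from -0.36 to 0.30). The number called was thus 2 of 4, where 54.1% of all features were called and 23.3% fell. With either MDN array left out, most MDN calls over all features were lost. GAP1 did not pass without MDN array 2 (-0.76). The call for MEP1 rested on all 4 arrays: it was lost without MDN array 1 (-0.40, adjusted p = 0.11), without MDN array 2 (-0.27, adjusted p = 0.174), and without either YPD array (-0.33, adjusted p = 0.051).

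**Figure D3:**
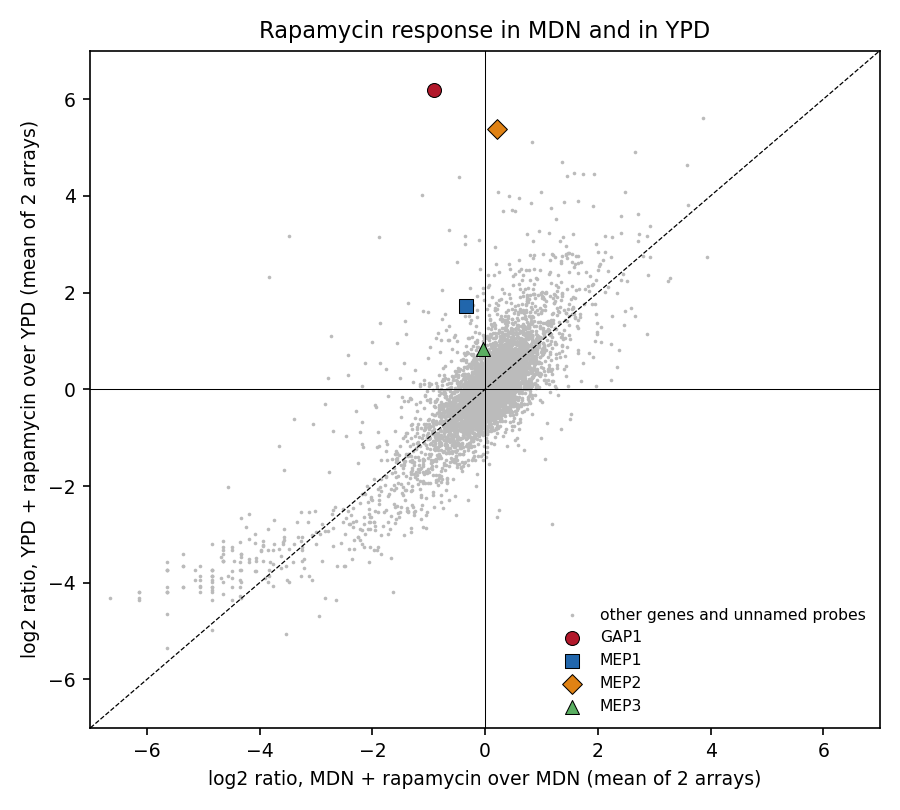
Mean log2 ratio over 2 arrays for rapamycin in MDN (x axis) and in YPD (y axis). Grey points are the other genes and unnamed probes, coloured points are the 4 permease genes, and the dashed line marks equal responses. GAP1 (-0.91, 6.18) and MEP2 (0.22, 5.38) lie far above the line, MEP1 (-0.33, 1.72) lies above it and MEP3 (-0.03, 0.84) lies nearer to it.

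The response to rapamycin differed between the media for each of the 4 genes. For GAP1 the MDN response minus the YPD response was -7.09 ± 0.15 (limma, adjusted p = 0.000126), the lowest difference of all 5488 features. For MEP2 it was -5.17 ± 0.21 (adjusted p = 0.000614), at rank 5485 when differences are ordered from the highest. The rapamycin ratio of GAP1 was thus 136-fold lower in MDN than in YPD, and that of MEP2 was 36.0-fold lower. For MEP1 the difference was -2.05 ± 0.12 (adjusted p = 0.00129), and for MEP3 it was -0.87 ± 0.18 (adjusted p = 0.025). All 4 differences were negative and passed the test, where 14.6% of all features passed in that direction. Both rapamycin arrays in MDN lay below both in YPD for all 4 genes, as they did for 32.6% of all features. With any 1 of the 4 arrays left out, no feature passed the limma test of the difference. An unadjusted p under 0.05 was then reached by 1495 features without either MDN array, 2030 without YPD array 1 and 2159 without YPD array 2. In those fits the difference lay between -7.24 and -6.94 for GAP1, -2.12 and -1.99 for MEP1, -5.44 and -4.90 for MEP2, and -1.09 and -0.65 for MEP3. GAP1 and MEP1 both fell in MDN and rose in YPD, a combination that 81 of 5488 features showed, or 1.48%. It rests on their MDN calls, which needed the arrays named above.

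The ratios can be chained to place the conditions on one log2 scale relative to YPD. This assumes that untreated MDN and YPD were alike on the rapamycin and medium arrays, which the labels do not state. GAP1 stood at 5.84 in MDN with rapamycin, 6.75 in MDN, 0.75 in SCD and 6.18 in YPD with rapamycin. It was thus lowest in YPD and SCD and highest in untreated MDN, and the conditions with rapamycin in either medium fell between. By array, GAP1 in MDN with rapamycin ran from 5.69 to 5.99 and in YPD with rapamycin from 6.14 to 6.23, which do not overlap, although the first pair also carries the unreplicated step from YPD to MDN. MEP2 stood at 6.52 in MDN with rapamycin, 6.30 in MDN, 0.41 in SCD and 5.38 in YPD with rapamycin. By array, MEP2 ran from 6.41 to 6.63 in MDN with rapamycin, above the single value in MDN, although that difference did not pass limma's test, and from 5.12 to 5.65 in YPD with rapamycin, below both. The levels of MEP1 covered a smaller range, at 0.94 in MDN with rapamycin, 1.27 in MDN, 0.02 in SCD and 1.72 in YPD with rapamycin, so that the top condition was YPD with rapamycin. For MEP3 the values were -0.18 in MDN with rapamycin, -0.15 in MDN, 0.32 in SCD and 0.84 in YPD with rapamycin. The MDN values of MEP3 with and without rapamycin and that of YPD were not separated beyond the array spread of -0.40 to 0.04 in MDN with rapamycin. Levels in MDN and SCD rest on 1 array per step, so the order of GAP1, MEP1, MEP2 and MEP3 levels in these media has no replicate check.

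**Figure D4:**
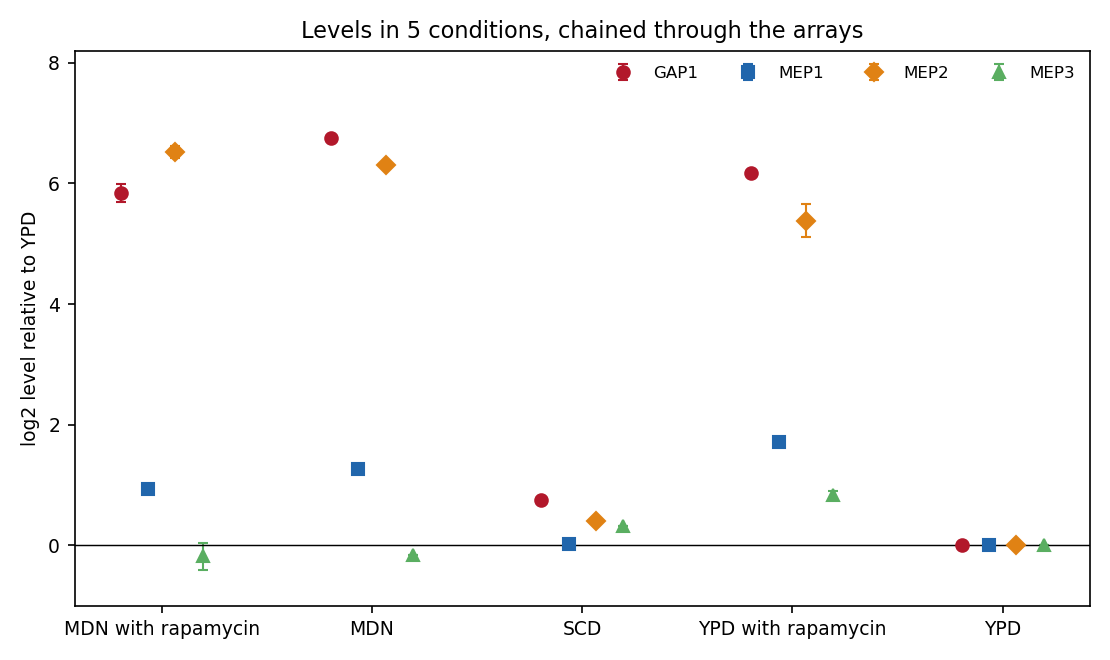
Log2 level relative to YPD (y axis) in 5 conditions (x axis), obtained by adding the array ratios that link each condition to YPD. Points use the mean of the 2 rapamycin arrays where there are 2, and bars run from the lower to the higher of them; the steps from YPD to MDN and from MDN to SCD have 1 array and no bar. GAP1 and MEP2 lie between 5.38 and 6.75 in MDN, in MDN with rapamycin and in YPD with rapamycin, and under 1 in SCD.

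When YPD with rapamycin was set beside untreated MDN, both relative to YPD, the log2 difference was -0.57 for GAP1 and -0.92 for MEP2, and 0.45 for MEP1 and 0.99 for MEP3. GAP1 and MEP2 thus lay lower, and MEP1 and MEP3 higher, in YPD with rapamycin. These values join arrays from different comparisons and were not tested.

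The genes most like each permease were found by the root mean square difference of log2 ratios over the 6 arrays, among 4875 other named genes with all 6 values. GAP1 and MEP2 were each other's nearest gene, at 0.83. For both, DAL80, the GATA repressor, came next, at 1.84 from GAP1 and 1.12 from MEP2. DAL80 stood at 5.04 for MDN over YPD, 5.22 against SCD, 0.91 and 0.72 with rapamycin in MDN, and 3.90 and 3.79 with rapamycin in YPD. It therefore shared the high medium ratios but rose slightly in MDN, where GAP1 fell. The other near genes were the same for both: ARG3, ornithine carbamoyltransferase of arginine synthesis (2.21 from GAP1 and 1.74 from MEP2), ASP3-2, one of the near-identical copies of cell wall asparaginase II (2.25 and 1.57), and CPS1, a vacuolar carboxypeptidase (2.39 and 1.77). Probes for the ASP3 copies may share signal.

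MEP1 and MEP3 had other neighbours, and closer ones. Nearest to MEP1 were ADE3, a folate enzyme that feeds purine synthesis, at 0.21, YML131W at 0.22, HIS1, the first enzyme of histidine synthesis, at 0.26, VBA2, a vacuolar basic amino acid transporter, at 0.30, and ADE12, adenylosuccinate synthase, at 0.33. ADE3 stood at 1.24 over YPD and 1.5 over SCD, with -0.18 and -0.10 for rapamycin in MDN and 1.43 and 1.57 in YPD. Nearest to MEP3 were GCG1, a glutathione-degrading enzyme, at 0.14, SSP120 and SHY1, a cytochrome oxidase assembly protein, both at 0.21, PRP5, a splicing helicase, at 0.21, and MIC60, of the mitochondrial inner membrane, at 0.22. MEP1 itself was 3.53 from MEP2 and 1.06 from MEP3, so the ammonium permeases did not form one group on this measure. The measure depends on the size of the ratios, so genes with small ratios lie closer together. In sign, MEP1 matched GAP1 on every array, whereas MEP3 was below 0 on both medium arrays.

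The nearest measured genes along the chromosome did not share the ratios of GAP1 and MEP2. KAE1 and YKR041W, on either side of GAP1, stood at -0.14 and -0.36 for MDN over YPD. YNL143C and AAH1, on either side of MEP2, stood at -0.56 and -0.47. AAH1, adenine deaminase, had -3.84 and -3.32 with rapamycin in YPD, where MEP2 had 5.65 and 5.12.

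Regulators of these permeases were followed as a list of the GATA factors and Ure2, of which 4 of 5 could be tested. With rapamycin in MDN 1 rose and 1 fell, close to the 30.8% and 23.3% of all features that did, and in YPD 3 rose and none fell, where 34.3% of all features rose. GAT1, an activator, stood at -0.74 and -0.94 with rapamycin in MDN, against 1.11 and 1.20 in YPD, with fitted means of -0.84 ± 0.09 and 1.16 ± 0.09. On the medium arrays GAT1 was at 2.27 over YPD and 2.19 over SCD, so that its signs were those of GAP1 on every array. DAL80 rose by 0.82 ± 0.09 in MDN and by 3.85 ± 0.09 in YPD, a difference of -3.03 ± 0.13 (adjusted p = 0.000614). GZF3, a repressor, was at -0.17 ± 0.09 in MDN (adjusted p = 0.183) and rose by 1.31 ± 0.09 in YPD. URE2 was at -0.15 in MDN and 0.29 in YPD (adjusted p = 0.0642) and passed in neither. GLN3 lacked a value on MDN array 2 and was not tested, with 0.52 on MDN array 1, against 0.84 and 1.70 in YPD. In MDN, DAL80 was not called without MDN array 1, nor GAT1 without MDN array 2. The 3 calls in YPD were kept with any 1 array left out.

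Genes listed for ammonium assimilation, which here include GDH2, rose in both media except GDH1. GDH1 was at -0.09 ± 0.17 in MDN and -0.31 ± 0.17 in YPD and passed in neither. Of the 5 genes, 4 rose with rapamycin in MDN, where 30.8% of all features rose, and 4 rose in YPD, where 34.3% did. GLN1, glutamine synthetase, stood at 0.65 and 0.64 in MDN, against 2.27 and 2.24 in YPD, a difference of -1.61 ± 0.11 (adjusted p = 0.00167). GDH3, an NADP-dependent glutamate dehydrogenase, rose by 1.37 ± 0.21 in MDN and 2.00 ± 0.21 in YPD. GDH2, the NAD-dependent enzyme that releases ammonium from glutamate, rose by 1.27 ± 0.22 in MDN and 1.90 ± 0.22 in YPD. GLT1, glutamate synthase, rose by 0.36 ± 0.09 in MDN and 0.66 ± 0.09 in YPD. The difference between media passed for GLN1 alone among the 5, although that of GDH3 (-0.63 ± 0.30, adjusted p = 0.174) passed with a replicate block (adjusted p = 0.0437). Over all features, 14.6% passed with a negative difference. Shared signal between the probes of the related genes GDH1 and GDH3 was not tested. With either MDN array left out, the genes called in MDN lost their calls, as did most features called there. GDH3 also lost its MDN call without either YPD array. In YPD, without array 2, GDH3 was not called and GDH1 was called lower.

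Other transporters of nitrogen compounds rose in both media. All 6 rose in MDN, with a median of 1.71 against 0.06 over all features, of which 30.8% rose. All 6 also rose in YPD, with a median of 2.33 against 0.01 over all features, of which 34.3% rose. DAL5, the allantoate permease, stood at 3.57 and 3.59 in MDN, against 4.99 and 4.30 in YPD. It was also 4.20 over YPD and 3.99 over SCD on the medium arrays, so its transcript was higher in MDN than in YPD and rose further with rapamycin in MDN, where GAP1 fell. DUR3, the urea and polyamine transporter, stood at 1.71 and 1.57 in MDN, against 3.72 and 4.07 in YPD. UGA4, the 4-aminobutyrate permease, rose by 1.78 ± 0.10 in MDN and 2.42 ± 0.10 in YPD, and OPT2, an oligopeptide transporter, by 2.52 ± 0.13 in MDN and 2.24 ± 0.13 in YPD. PTR2, the peptide transporter induced by external amino acids, was at -3.64 for MDN over YPD and rose by 1.26 ± 0.11 with rapamycin in MDN. The difference between media was negative and passed for DUR3 (-2.26 ± 0.16), DAL5 (-1.06 ± 0.24), DAL4, the allantoin permease (-1.01 ± 0.13), and UGA4 (-0.63 ± 0.14). These were 4 of the 6, where 14.6% of all features passed in that direction. At equal array scale the difference of DAL5 changed sign to 0.13 (adjusted p = 0.663) and that of UGA4 was -0.02 (adjusted p = 0.941). With a replicate block UGA4 did not pass either (adjusted p = 0.0553). The difference of OPT2 was 0.28 (limma, adjusted p = 0.279), but at equal array scale it was 0.98 and passed (adjusted p = 0.00705). DAL5, OPT2 and UGA4 kept their MDN calls with either MDN array left out, where most calls over all features were lost. DAL4 and PTR2 lost theirs in both cases, and DUR3 without MDN array 1.

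**Figure D5:**
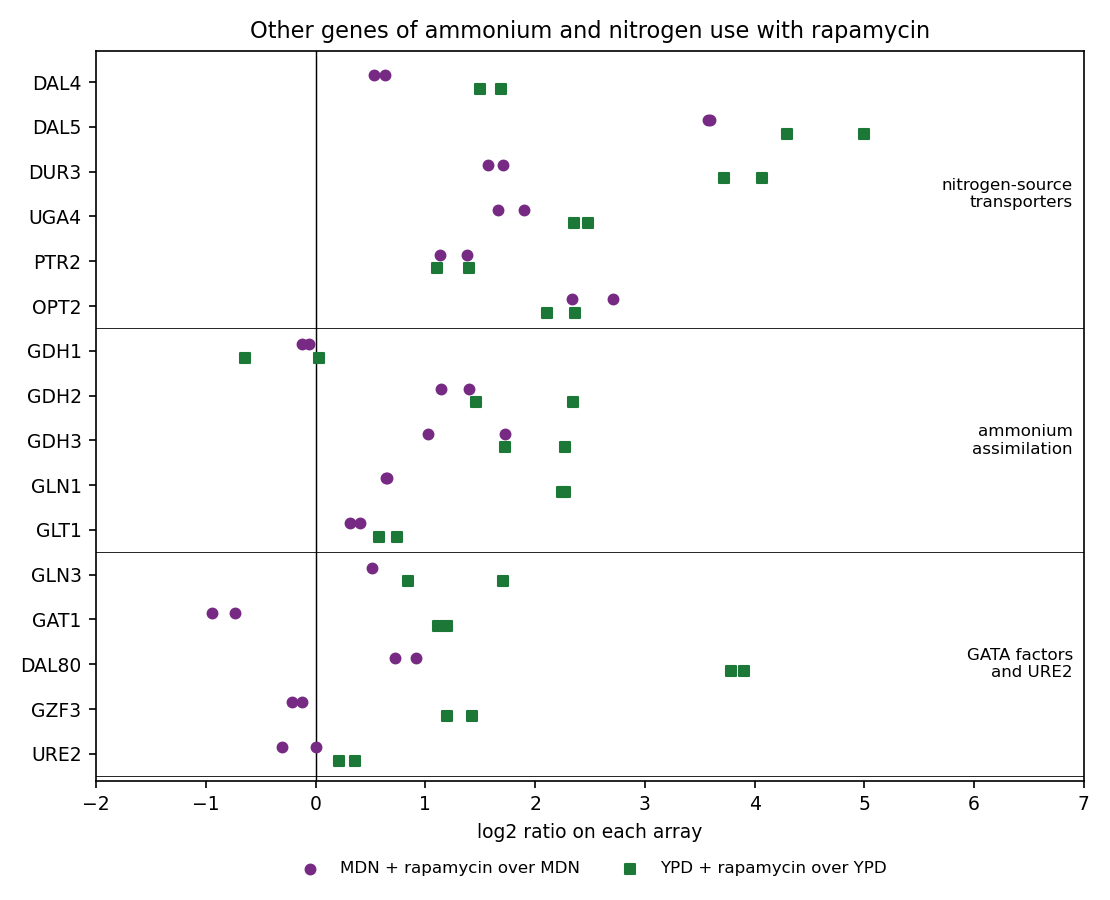
Log2 ratio with rapamycin on each array (x axis) for transporters of other nitrogen compounds, ammonium assimilation genes and GATA regulators (y axis). Circles are the MDN arrays and squares the YPD arrays, 2 points each where both arrays had a value. DAL5 lies at 3.57 and 3.59 in MDN, whereas GAT1 is below 0 on both MDN arrays and above 1 on both YPD arrays.

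GAP1 belongs to a family of amino acid permeases, several of which had far lower levels in MDN than in YPD. Of the 19 other members, 1 reached a log2 ratio of at least 1 for MDN over YPD and 8 were at -1 or below. Their median was -0.60, and over all features 3.93% were at 1 or above and 1.96% at -1 or below. Among 18 with a value over SCD, 1 was at 1 or above and 8 at -1 or below, where 2.39% and 0.983% of all features were. BAP3 and BAP2, which import branched-chain amino acids, stood at -5.06 and -4.06 for MDN over YPD. TAT1 and TAT2, permeases for aromatic and other amino acids, stood at -4.06 and -3.06. Ratios were given in steps of 0.01, with a lowest possible log2 ratio of -6.64, so such strongly negative values are coarse. GAP1, at 6.75, had the opposite sign on the same array. PUT4, the proline permease, stood at 0.97 over YPD and 1.34 over SCD.

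With rapamycin, 17 members of that family could be tested. In MDN 5 rose and 5 fell, where 30.8% of all features rose and 23.3% fell. In YPD 5 rose and 7 fell, where 34.3% of all features rose and 32% fell. These shares are near those over all features. AGP1, a broad amino acid permease, stood at -0.40 and -0.30 in MDN, where its mean of -0.35 ± 0.13 did not pass (adjusted p = 0.0805), against 3.42 and 2.93 in YPD. AGP1 in MDN did pass with arrays centred on the median (-0.41, adjusted p = 0.0417), at equal array scale (-0.40, adjusted p = 0.0209) and in a separate fit per medium (adjusted p = 0.0398). Its difference of -3.52 ± 0.19 (adjusted p = 0.00123) had the same sign as that of GAP1, but on the medium array AGP1 was at -1.79 over YPD, where GAP1 was at 6.75. DIP5, for acidic amino acids, rose by 3.28 ± 0.12 in MDN and 2.30 ± 0.12 in YPD. MUP1, the methionine permease, fell in both media, to -2.26 ± 0.11 in MDN and -3.06 ± 0.11 in YPD. GNP1, for glutamine, also fell in both, to -1.90 ± 0.12 in MDN and -2.06 ± 0.12 in YPD. MMP1, for S-methylmethionine, fell likewise, to -1.09 ± 0.10 in MDN and -1.46 ± 0.10 in YPD. TAT1 was at 0.21 ± 0.16 in MDN (adjusted p = 0.315) and fell by 2.63 ± 0.16 in YPD, and BAP2 rose by 0.99 ± 0.11 in MDN and fell in YPD, to -1.0 ± 0.11. Differences between media passed for 6 of the 17, 4 positive and 2 negative, where 14.9% and 14.6% of all features passed in these directions. With either MDN array left out, most MDN calls of this family were lost, as were most over all features. BAP2 was among the calls lost in both cases, and MMP1 without MDN array 2. In YPD, fewer genes of this family were called without either YPD array, as was so over all features.

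Genes that act on Gap1 and Mep proteins after translation had log2 ratios under 1 in size on the medium arrays, as did most features. Of the 14 that could be tested with rapamycin, 7 rose and 1 fell in MDN, where 30.8% of all features rose and 23.3% fell. In YPD 7 rose and 3 fell, where 34.3% rose and 32% fell. NPR1, the kinase that keeps Gap1 and the Mep proteins active at the cell surface, stood at 0.40 and 0.54 in MDN, against 1.15 and 1.02 in YPD, a difference of -0.62 ± 0.12 (adjusted p = 0.0228) that did not pass at equal array scale (-0.39, adjusted p = 0.0777) or with a replicate block (adjusted p = 0.0504). SLM4 and MEH1, subunits of the complex that sorts Gap1 from endosomes to the surface, rose by 0.83 ± 0.08 and 0.70 ± 0.08 in MDN. In YPD, SLM4 rose by 1.08 ± 0.08, BUL1, an adaptor of the ubiquitin ligase Rsp5, by 0.73 ± 0.13, PAR32, an inhibitor of Mep1 and Mep3, by 0.56 ± 0.09, and DOA4, a deubiquitinating enzyme, by 0.46 ± 0.08. AUA1 and LST7, which act in Gap1 activity and sorting, rose by 0.66 ± 0.14 and 0.49 ± 0.11 in MDN, AUA1 not passing in a separate fit per medium (adjusted p = 0.0788). The MDN calls of this list were all lost with either MDN array left out, as were most over all features. AUA1, BUL1, PAR32 and RSP5 also lost their MDN calls without either YPD array. In YPD, fewer genes of this list were called without either YPD array, as was so over all features. BUL1 and PAR32 were among the YPD calls lost in both cases. Fewer genes counted as fallen in YPD with any rapamycin array left out.

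In the ATO family of ammonia and acetate transporters, ATO3 fell with rapamycin in both media (-1.32 ± 0.16 in MDN and -1.49 ± 0.16 in YPD), while ATO2 and ADY2 passed in neither medium. ATO2 in MDN, at -0.53 ± 0.18 (adjusted p = 0.0522), did pass with a replicate block (adjusted p = 0.0185), with arrays centred on the median (-0.59, adjusted p = 0.0287), at equal array scale (-0.62, adjusted p = 0.02) and with a robust prior (adjusted p = 0.0388). The MDN call of ATO3 was lost without either MDN array. Filamentous growth genes were followed because Mep2 signals to that pathway, although S288c carries a nonfunctional allele of FLO8, the activator of FLO11. FLO11, the main adhesin of the pathway, was at -0.19 ± 0.11 in MDN (adjusted p = 0.205), and PHD1, a transcription factor, fell in both media (-0.70 ± 0.10 in MDN and -1.46 ± 0.10 in YPD). Of 10 genes tested, 3 rose and 1 fell in MDN, where 30.8% and 23.3% of all features did. In YPD 2 rose and 4 fell, where 34.3% and 32% of all features did. The difference between media passed for 4 of the 10, PHD1, FLO8, SOK2 and PLC1. All 4 were positive, where 14.9% of all features passed in that direction. That of PHD1 did not pass at equal array scale, nor those of SOK2 and PLC1 with a replicate block. GPA2, a G protein subunit, rose by 0.48 ± 0.11 in MDN and 0.74 ± 0.11 in YPD, TEC1 rose by 0.38 ± 0.11 and PLC1 by 0.32 ± 0.08 in MDN, and SOK2 (-0.67 ± 0.09) and FLO8 (-0.50 ± 0.09) fell in YPD. TEC1 in MDN did not pass with arrays centred on the median (adjusted p = 0.0536) or in a separate fit per medium (adjusted p = 0.116). All MDN calls of this list were lost with either MDN array left out, as were most over all features. In YPD, fewer genes of this list were called without either YPD array, as was so over all features. FLO8 lost its YPD call in both cases, and GPA2 without array 1.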

How the data were processed

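The values are the log2 ratios deposited by the authors, 6210 probes on 6 arrays of 2 channels. The log scale was read from the values, since 2 raised to each is a multiple of 0.01 for 100% (tolerance 0.0001). The sources used here do not give the scanner, background correction, normalization, spot filter or array build, and no coordinates are printed. The array annotation gave 1 gene symbol for 5595 probes and none for 615, and all 5595 matched the RefSeq gene table of assembly R64. Probes of 1 gene were averaged, and features with a value on all 4 rapamycin arrays (5488, of them 4996 named) were fitted with limma 3.58.1 in R 4.3.3, with a mean per medium and a shared spread (2 residual and 3.00 prior degrees of freedom). Tests were two-sided with Benjamini-Hochberg adjustment over all features, called at an adjusted p under 0.05. Precision is limited by the few arrays. The fit was tested on simulated data.

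Genes were named by rule: the 4 permeases, up to 4 genes of each list per tested comparison with the largest values, called ones first, and the 5 genes nearest to each permease. BAP3, TAT2, PUT4, PTR2, GLN3, GDH1, FLO11, RSP5 and the chromosome neighbours were named after their values were seen. The permeases and lists were chosen with earlier results of these data known. Alternatives were median centring, equal array scale, a separate fit per medium, a robust prior, a replicate block, single probes in place of genes, features measured on only 1 array of a medium, ratios floored at 0.05, a log2 threshold of 1.5 for medium arrays, and each array left out; a crossed block was added after seeing the data. A search of promoters and a comparison of proteins were not run here. Python 3.11.15 with matplotlib 3.10.9 made the plots.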

Additional observations from a re-analysis of the deposited data

Results flagged for a closer look

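The response to rapamycin differed between MDN and YPD, by limma's test of the difference, for the following genes, given as the MDN response minus the YPD response on the log2 scale. Of all 5488 features, 14.9% passed with a positive difference and 14.6% with a negative one. No feature passed this test with any 1 of the 4 arrays left out. Among the permeases of the report the difference was -7.09 for GAP1, -5.17 for MEP2, -2.05 for MEP1 and -0.87 for MEP3. Among other amino acid permeases it was -3.52 for AGP1, 2.84 for TAT1, 2.00 for BAP2, 0.98 for DIP5 and 0.81 for MUP1. Among transporters of other nitrogen compounds it was -2.26 for DUR3, -1.06 for DAL5, -1.01 for DAL4 and -0.63 for UGA4. Among regulators and ammonium assimilation genes it was -3.03 for DAL80, -2.0 for GAT1, -1.48 for GZF3, -1.61 for GLN1 and -0.62 for NPR1. Among filamentous growth genes it was 0.76 for PHD1, 0.71 for FLO8, 0.58 for SOK2 and 0.44 for PLC1. At equal array scale the differences of MUP1 (0.04, adjusted p = 0.823) and PHD1 (0.45, adjusted p = 0.103) did not pass limma's test. Those of DAL5 (0.13, adjusted p = 0.663), UGA4 (-0.02, adjusted p = 0.941) and NPR1 (-0.39, adjusted p = 0.0777) did not pass there either. With a replicate block the differences of SOK2 (adjusted p = 0.0513), PLC1 (adjusted p = 0.0788), UGA4 (adjusted p = 0.0553) and NPR1 (adjusted p = 0.0504) did not pass. That of PLC1 did not pass with arrays centred on the median either (0.39, adjusted p = 0.054).

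Genes chosen because their ratios resembled those of a permease on the same arrays are not independent of it. The difference was -3.37 for ARG3, -2.96 for CPS1 and -2.27 for ASP3-2 near GAP1 and MEP2. It was -2.27 for HIS1, -2.22 for ADE12, -1.80 for VBA2, -1.78 for YML131W and -1.64 for ADE3 near MEP1. It was -0.85 for GCG1, -0.75 for MIC60, -0.68 for SSP120, -0.61 for PRP5 and -0.58 for SHY1 near MEP3.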

How the results depend on the processing

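GAP1, MEP1 and MEP2 in YPD kept their sign and stayed called under every alternative run. In a separate fit per medium, MEP1 in MDN (-0.33, adjusted p = 0.051) lost its call, leaving 1 permease called in MDN. With 1 array left out, permeases called in MDN numbered 0 to 1, and features called numbered 540 to 2607 in MDN, 2388 to 2891 in YPD and 0 for the difference, for which 0 permeases were called. In MDN, GAP1 then ranged from -1.06 to -0.76 and MEP1 from -0.40 to -0.27, and MEP3 in YPD from 0.77 to 0.90. The difference ranged from -7.24 to -6.94 for GAP1, -2.12 to -1.99 for MEP1, -5.44 to -4.90 for MEP2 and -1.09 to -0.65 for MEP3. Equal array scale gave the rapamycin arrays the same spread, so it enlarged MDN values and reduced YPD values. DAL5 in MDN then went from 3.58 to 4.15, and its difference was 0.13. Why the YPD rapamycin arrays spread more widely was not tested. Fits with a lone array in a medium take its spread from the other medium. The labels share replicate numbers but do not say that these pair arrays, and the deviations of same-numbered arrays correlated at -0.103 across genes. A replicate block called 2709 features in MDN, 3417 in YPD and 1185 for the difference, and the crossed block 2830, 3532 and 1387; both kept 2, 4 and 4 permeases called. Among other named genes, the replicate block ended the difference of NPR1, PLC1, SOK2 and UGA4, AUA1 in YPD and ASP3-2 in MDN, and added ATO2 in MDN and the difference of GDH3. Signal over background was not used here.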
